A study of Mus musculus with 21 samples.

Results

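The regions described here are stretches of open chromatin that were called in every ATAC-seq library and that lie away from the ends of protein-coding genes. They were chosen by merging the peaks of the 8 ATAC lists where they overlapped by 1 bp, keeping regions with a peak in all 8 lists, and then keeping those more than 1 kb from every boundary (start or end) of a protein-coding gene. This left 4683 of 51264 merged regions (9.14%). They made up 35.8% of the 13096 regions with a peak in all 8 lists, and the other 8413 (64.2%), which lie at or within 1 kb of a gene boundary, served as the comparison and are called boundary regions below. The 4683 are called distal regions, although 2413 of them lie inside a gene. Because presence in the ATAC lists selected them, everything said below of their ATAC peaks is a description with no test.

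All samples came from the mouse embryonic stem cell line A2lox-Sox7-Myc (parent line E14Tg2a), in which doxycycline switches on a Myc-tagged Sox7, so the controls carry the transgene too, and all were embryoid bodies of day 4. ATAC-seq used 2 sorted populations, PDGFRα+FLK1+ (cardiac progenitors, CPC) and PDGFRα-FLK1+ (endothelial progenitors, EPC). Each had 2 samples without and 2 with induction. Anti-Myc ChIP-seq used unsorted cells, with 4 uninduced samples, 4 induced samples and 1 uninduced input without antibody. Induction was by 1 µg/ml doxycycline over 24 h. The growth protocol also mentions a PDGFRα+FLK1- sort, and the groups used here follow the sample characteristics. Nothing says that replicates were separate cultures, so a p-value here measures the spread between samples of 1 line, and that spread may be technical.

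DNA that is free of nucleosomes is cut by the transposase used in ATAC-seq, and such DNA includes promoters, enhancers and insulators. Open promoters tend to be shared between cell types, whereas enhancers, which can act from inside genes or from far outside them, differ more between cell types. Sox7 belongs with Sox17 and Sox18 to the SOXF transcription factors, which bind a short ACAATGG-like sequence and act in endothelium and endoderm.

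The ATAC lists held 23068 to 30732 peaks, and 16.0% to 21.6% of the peaks of a list lay in distal regions. The 2 shortest lists were uninduced CPC replicate 2 and uninduced EPC replicate 2. The ChIP lists held 772 to 1059 peaks without induction and 1061 to 2807 with it. Uninduced ChIP lists 2 and 4 had 585 peak starts in common to the base, 75.8% of the shorter list, where no other pair of ChIP lists passed 1.04%, so the pair was counted as 1 sample. No list gives read counts, so the depth behind the peaks is unknown, and a missing peak can come from a shallower library. As a check of the sorts, peaks at Pdgfra and at Kdr, which encodes FLK1, were called in all 4 CPC and all 4 EPC lists, a peak at the blood gene Gata1 in 0 CPC and 4 EPC lists, and none in any list at the pluripotency genes Pou5f1 and Dppa3. Only Gata1 separated the sorts, and Pdgfra had a peak in every EPC list although that sort was negative for its protein. Cdh5 and Tek, of endothelium, each had a peak in 3 CPC and 4 EPC lists. Tal1, of blood, had a peak in all 8 lists, and Nanog, of pluripotent cells, in 4 CPC and 2 EPC lists. Genes of other lineages had peaks too: Sox17 and Pax6 in all 8 lists and Foxa2 in 3 CPC and 3 EPC lists.

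Some distal regions held a transcription start although no boundary of a protein-coding gene was near. The annotation places further starts inside such genes, and starts of non-coding RNAs both inside and outside them. The 5 sequences here are the 250 bases before such starts, from RefSeq on GRCm38.p6, each given 5′ to 3′ on its own strand with capitals for the GC box GGGCGG and the TATA box TATAAA, searched on both strands. The first pair, at chr1:118459266-118459515 (minus strand) and chr2:101665716-101665965 (minus strand), are the starts of long non-coding RNAs (lncRNAs) that lay in distal regions with induced Sox7 binding. The other 3, at chr11:108920099-108920348 (plus strand), chr13:83523406-83523655 (plus strand) and chr12:3806730-3806979 (plus strand), are starts of genes of the lists used below. Across the 5 sequences the number of these motifs runs from 0 to 5.
2900060B14Rik: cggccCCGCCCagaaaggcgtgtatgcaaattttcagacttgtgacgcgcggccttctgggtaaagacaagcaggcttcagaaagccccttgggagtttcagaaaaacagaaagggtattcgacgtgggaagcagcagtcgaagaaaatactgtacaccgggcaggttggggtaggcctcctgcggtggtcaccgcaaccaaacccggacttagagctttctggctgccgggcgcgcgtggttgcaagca
Gm34041: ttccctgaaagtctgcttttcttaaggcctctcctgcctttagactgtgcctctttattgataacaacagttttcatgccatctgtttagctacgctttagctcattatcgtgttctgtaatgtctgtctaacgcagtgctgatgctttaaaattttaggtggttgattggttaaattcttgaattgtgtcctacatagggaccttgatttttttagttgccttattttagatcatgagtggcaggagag
Axin2: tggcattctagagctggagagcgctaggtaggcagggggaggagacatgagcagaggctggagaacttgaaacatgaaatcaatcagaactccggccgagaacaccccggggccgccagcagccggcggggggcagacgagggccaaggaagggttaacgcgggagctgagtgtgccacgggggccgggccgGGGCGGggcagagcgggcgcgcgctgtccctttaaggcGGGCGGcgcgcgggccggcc
Mef2c: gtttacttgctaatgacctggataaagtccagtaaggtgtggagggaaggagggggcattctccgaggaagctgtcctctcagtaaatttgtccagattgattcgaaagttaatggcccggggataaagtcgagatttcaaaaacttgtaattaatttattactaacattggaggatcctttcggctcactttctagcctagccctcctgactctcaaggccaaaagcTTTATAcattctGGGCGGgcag
Dnmt3a: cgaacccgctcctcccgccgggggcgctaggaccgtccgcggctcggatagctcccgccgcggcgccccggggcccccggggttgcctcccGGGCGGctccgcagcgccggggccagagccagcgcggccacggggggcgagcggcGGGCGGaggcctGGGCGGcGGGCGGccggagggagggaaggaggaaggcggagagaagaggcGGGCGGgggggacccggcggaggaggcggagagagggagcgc

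The Dnmt3a sequence holds 5 GC boxes, the Axin2 sequence 2, and the Gm34041 sequence none. The Mef2c sequence holds 1 TATA box and 1 GC box. Over the start and its flanks (300 bases), the GC content was 82.3% at Dnmt3a, 70.0% at Axin2, 56.0% at 2900060B14Rik, 47.0% at Mef2c and 40% at Gm34041. The region with the Dnmt3a start, the highest of the 5 in GC content, had a mean ATAC score rank of 18.1, and the region with the 2900060B14Rik start had one of 96.3, on the percentile scale explained below.

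MicroRNA genes were few. Of 1005 hairpins in the RefSeq table, 14 overlapped 13 distal regions. The region with the highest rank among those printed here held Mir210, whose product is induced by hypoxia in many cell types, 2.53 kb outside Rassf7. The others held Mirlet7i, of the let-7 family, and the neighbours Mir132 and Mir212. The mature sequences are shown because the last pair, from a single open region, share the seed (bases 2 to 8, in capitals).
mmu-miR-210-3p: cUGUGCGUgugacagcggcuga
mmu-let-7i-5p: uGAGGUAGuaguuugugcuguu
mmu-miR-132-3p: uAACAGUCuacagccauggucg
mmu-miR-212-3p: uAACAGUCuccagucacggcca

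The Mir210 region had ranks of 87.1, 80.2, 79.6 and 80.2 in the CPC lists and 88.2, 78.5, 83.0 and 83.6 in the EPC lists, both given with the uninduced pair first, so it stayed in the upper part of every list. The region with Mir132 and Mir212 ranked 39.2 to 57.9 in CPC and 40.5 to 64.5 in EPC. The groups of both regions overlapped.

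Distal regions were spread from inside genes to far outside them. Inside a protein-coding gene lay 2413 (51.5%), 1502 (32.1%) lay outside but within 50 kb of one, and 768 (16.4%) had none within 50 kb. The median distance to the nearest gene boundary was 15.9 kb, 2830 regions (60.4%) were over 10 kb from any, and 647 (13.8%) were over 100 kb from any. The farthest lay 2227 kb away. The median width was 1312 bp (quartiles 1119.5 and 1670.5), against 1568 bp for boundary regions, and 89.0% of the distal regions consisted of exactly 1 peak per list. Together they covered 7.32 Mb.

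Presence in all 8 lists was less common away from gene boundaries. Of all 37571 merged regions over 1 kb from a boundary, 12.5% had a peak in all 8 lists and 33.2% in a single list, whereas 61.4% of the 13693 regions near a boundary had a peak in all 8. Just inside the distance threshold, the 227 regions up to 500 bp beyond it had a median rank of 36.1 and a median width of 1426 bp. Just outside it, the 310 regions up to 500 bp short of it had 37.0 and 1447 bp. The 1748 distal regions with a peak in 7 of 8 lists missed it most often in uninduced CPC replicate 2 (475, 27.2%) and uninduced EPC replicate 2 (383, 21.9%), the shortest lists.

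Annotated starts set apart a minority of the distal regions. Sequence tables covered the 4513 distal regions off chromosome 18. Of these, 721 (16.0%) lay on an annotated start of a protein-coding gene, 280 (6.20%) on a start of a lncRNA alone, and 3512 (77.8%) on none. Among boundary regions, 6631 of 8212 (80.7%) lay on a start. The median score rank was 50.3 for distal regions on a protein-coding start, 39.7 on a lncRNA start and 33.9 on none.

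Starts inside distal regions looked like those inside boundary regions in base composition. The 1225 start windows (250 bases before to 50 after a start) that lay within distal regions had a median GC content of 60.7% and a CpG observed-to-expected ratio of 0.691. The 8990 windows within boundary regions had 62.7% and 0.803, and the 18077 windows on no ATAC region had 47.3% and 0.208. A GC box was present in 61.7% of the windows in distal regions, 71.5% of those in boundary regions, 12.0% of those on no ATAC region and 35.7% of all 32851 windows. The TATA box was present in 5.80%, 5.25%, 19.6% and 13.6%. The SOX motif ACAATGG, searched on both strands, was present in 2.04%, 1.76%, 4.97% and 3.66%. The GATA motif AGATAA was present in 4.90%, 4.72%, 15.4% and 11.2%. A match is only a run of letters, and these motifs differ in base composition as the windows do.

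Distal regions had lower ATAC scores than boundary regions in every library. Each region was given the rank of its highest peak score among the 13096 regions present in all 8 lists, as a percentile with 100 the highest and scores above 3100 treated as equal. The median rank of distal regions was 38.1, 40.5, 38.9 and 38.6 in CPC (uninduced 1 and 2, induced 1 and 2) and 34.8, 37.2, 35.8 and 36.9 in EPC. Boundary regions had medians from 55.3 to 57.4. The quartiles of both kinds overlapped in every library.

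**Figure D1:**
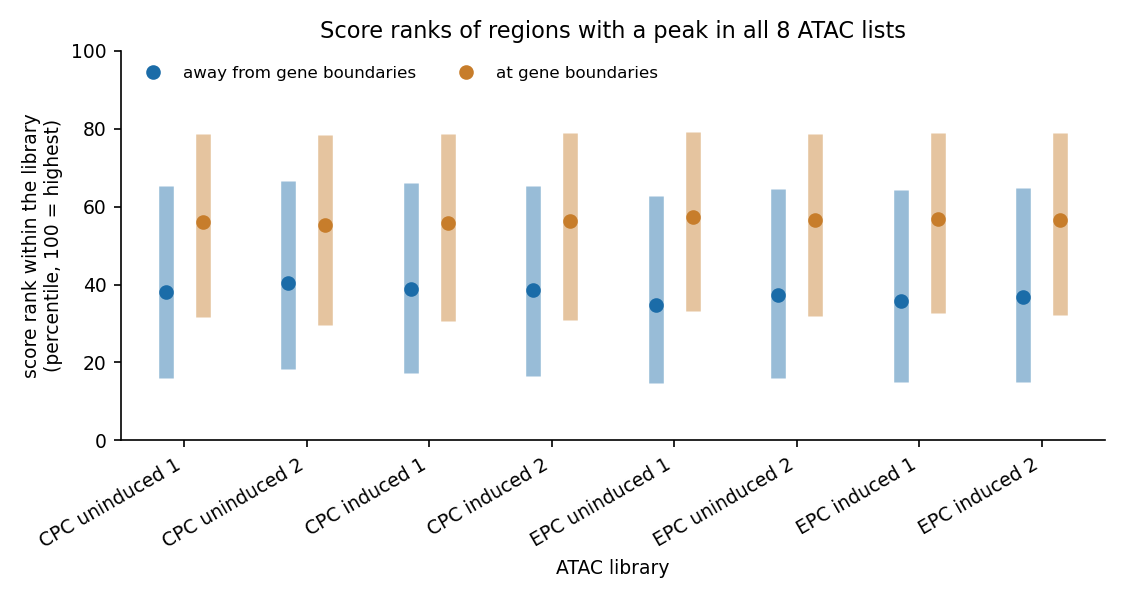
Median (point) and quartiles (bar) of the score rank, as a percentile within each ATAC library, for the 4683 distal and the 8413 boundary regions. The distal medians sit between 34.8 and 40.5 and the boundary medians between 55.3 and 57.4, with overlapping quartiles.

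Although always open, distal regions kept their place in the order less than boundary regions did. Over the 8 lists a distal region's rank spanned a median of 31.5 percentile points, against 23.3 for boundary regions. The span was over 50 points for 854 distal regions (18.2%) and for 260 boundary regions (3.09%). It was under 20 points for 1065 (22.7%) and 3411 (40.5%). Across distal regions, Spearman's correlation of the ranks was 0.852 to 0.905 for the 4 replicate pairs, 0.765 to 0.835 for the 8 pairs of induced and uninduced lists of a cell type, and 0.593 to 0.729 for the 16 pairs of lists of different cell types. Across boundary regions the same 3 ranges were 0.903 to 0.941, 0.886 to 0.932 and 0.858 to 0.906. These correlations are over regions, which share each library's depth, and carry no test.

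The regions with the highest scores were often regions where sequencing of input DNA also gave a peak. An input peak overlapped 258 distal regions (5.51%) and 27 boundary regions (0.321%), against 2.18% of all regions in the 8 lists. The median mean rank was 70.9 for distal regions on an input peak and 35.2 for the rest. In all 8 lists 48 distal regions reached the score of 3100, and 36 of these (75%) lay on an input peak, among them regions 22.9 kb from Col19a1, inside Myo3a and 12.4 kb from Abcb11. The other 12 included regions 48.8 kb from Nfasc, 7.55 kb from Slc2a3 (a glucose transporter gene), 43.7 kb from Zfp958, 7.09 kb from Ric8b and inside Zdhhc3. Also among them were regions on chromosome 5 (from 60847697) and chromosome 17 (from 93045919) with a peak in all 8 ChIP lists. Others spanned 38880 bp on chromosome 9 and 11748 bp on chromosome Y. The rest lay on chromosome 8, from 19783540, 20120908 and 102024151. Next in rank and off input peaks came a region inside Stxbp4, a region on chromosome 8 (20421716 to 20429692) 58.5 kb from any protein-coding gene, and regions inside Lrif1, Edem1 (a factor of protein quality control in the endoplasmic reticulum) and Ank3, with ranks of at least 98.3 in every list.

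The 5 widest distal regions lay on chromosomes Y, 9, 8 and 4. The widest spanned 42136 bp on chromosome Y (90760056 to 90802191), overlapped an input peak and lay 15.0 kb from Gm52481. It was followed by 38880 bp at the start of chromosome 9 (2999852 to 3038731), 19807 bp on chromosome 8 at 13.2 kb from Gm15319, 14448 bp on chromosome 4 at 9.52 kb from the zinc finger gene Zfp982, and 13428 bp on chromosome 8 at 13.9 kb from Gm21119. In windows of 2 Mb, the most distal regions were 42 on chromosome 4 at 146 to 148 Mb and 42 on chromosome 8 at 20 to 22 Mb, where the median over the 1124 windows with any was 3. Of the 5 widest, the 3 on chromosomes 8 and 4 lay in these windows. The window on chromosome 6 at 114 to 116 Mb held 28, of which 0 lay on an input peak.

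By gene, 3087 of 21883 protein-coding genes (14.1%) had a distal region inside or, for regions outside genes, as the nearest gene within 50 kb. Of these 622 had at least 2 and 29 at least 5. Gm15319 and the zinc finger gene Zfp993 had 9 each, Pde4d, which encodes a cAMP phosphodiesterase, and Rgs3, a regulator of G protein signalling, had 8 each, and the histamine receptor gene Hrh1 had 7. Its neighbour Atg7, an autophagy gene, had 6, all of them outside the gene, as were the 7 of Hrh1. The 8 of Pde4d all lay inside it.

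Between the cell types, 433 distal regions (9.25%) ranked higher in all 4 EPC lists than in any CPC list, and 593 (12.7%) the reverse. Among all regions in the 8 lists these shares were 7.16% and 7.54%, and among boundary regions 6.003% and 4.68%. The distal regions on no annotated start gave 9.79% and 14.2%, and those on a protein-coding start 6.52% and 5.55%. A lower score can mean that fewer cells of the sort had the region open or that it was less open in each cell, and the lists cannot tell these apart.

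The largest differences were nearly complete exchanges of rank. A region 30.02 kb from Dppa4, a gene of pluripotent cells (chromosome 16, 48252215 to 48253713), ranked 1.98 and 2.66 in uninduced CPC, 7.41 and 1.95 in induced CPC, 98.3 and 97.4 in uninduced EPC, and 96.6 and 98.6 in induced EPC. All EPC values thus lay near the top of this scale and all CPC values near its bottom (97.7 ± 0.898 against 3.50 ± 2.63, SD, n = 4 each). A region inside Clnk, an adaptor gene of immune cells (chromosome 5, 38816848 to 38818917), ranked 1.69, 1.29, 2.90 and 15.1 in CPC and 87.4, 85.5, 86.8 and 91.2 in EPC. A region inside both Apex2 and Alas2, the haem synthesis gene of red cells, ranked 0.848 to 30.5 in CPC and 91.6 to 96.4 in EPC. In the other direction, a region 24.7 kb from Stx16, a gene of vesicle transport (chromosome 2, 174048245 to 174051528), ranked 99.1, 98.2, 93.6 and 90.3 in CPC and 1.36, 7.002, 3.12 and 6.74 in EPC. A region on chromosome 4 (95317330 to 95319326), 238 kb from any protein-coding gene, ranked 86.5 to 96.1 in CPC and 4.55 to 18.8 in EPC. These 5 regions were picked from those whose groups do not overlap, so their separation follows from the choice.

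**Figure D2:**
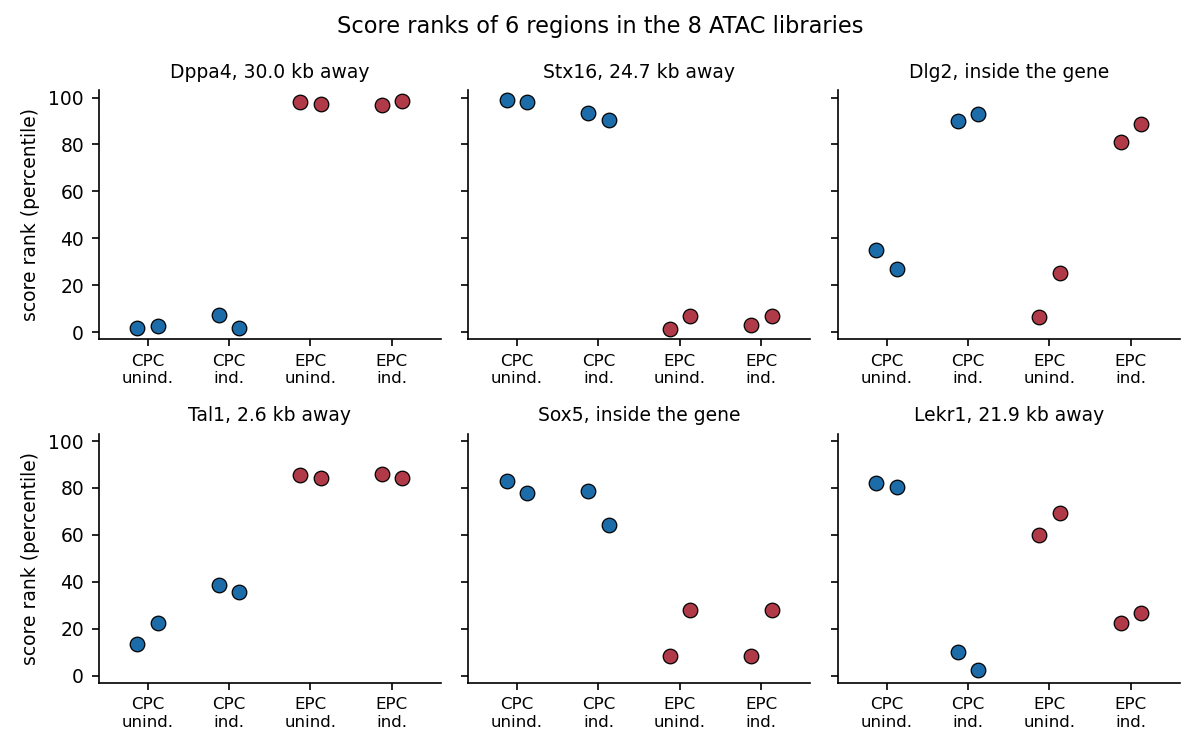
Score rank (percentile, vertical axis) of 6 distal regions in each of the 8 ATAC libraries, with CPC in blue, EPC in red and 2 replicates per group. The regions near Dppa4 and Tal1 are higher in every EPC list, those near Stx16 and in Sox5 in every CPC list, that in Dlg2 in every induced list and that near Lekr1 in every uninduced list.

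The counts for the gene lists that follow stand beside 14.1% of all protein-coding genes with a distal region, and beside 9.25% of all distal regions higher in every EPC list and 12.7% higher in every CPC list. They are small counts, and no list was tested. Blood genes, 7 of 21 with a distal region, had 11 regions, of which 6 were higher in every EPC list and 0 in every CPC list. Tal1, the transcription factor that starts the blood programme, had 4 regions. The one 2.57 kb outside the gene (chromosome 4, 115074326 to 115076404) ranked 13.4, 22.3, 38.5 and 35.8 in CPC and 85.5, 84.1, 86.1 and 84.3 in EPC, so the groups were far apart. The one inside Tal1 ranked 23.3 to 51.1 in CPC and 54.9 to 64.0 in EPC. A region 19.9 kb from Cbfa2t3, a co-repressor gene of blood cells, ranked 9.92 to 46.5 and 75.2 to 82.5, and one 1.59 kb from Gata2 ranked 22.2 to 41.5 and 51.6 to 69.1. The remaining 2 of the 6 lay at Lmo2 and Runx1, named here after their values were seen. At the Tal1 regions 2.88 and 6.89 kb away the CPC and EPC ranks overlapped. They also overlapped at Zfpm1 and at both regions inside Itga2b. The Itga2b regions had means of 21.1 and 19.4 in CPC and of 13.3 and 12.4 in EPC.

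Endothelial genes had regions at 14 of 29 genes, 20 in all, of which 3 were higher in every EPC list and 2 in every CPC list, shares near the 9.25% and 12.7% of all distal regions. The 2 higher in CPC lay at Egfl7 and Flt1 and the third higher in EPC at Esam, named after their values were seen. A region 10.3 kb from Cd34, a surface marker of endothelial and blood precursors, ranked 0.542 to 4.29 in CPC and 65.3, 41.8, 37.1 and 37.9 in EPC. The groups overlapped at the other Cd34 region, 14.5 kb away, with means of 54.7 in CPC and 51.8 in EPC. Of 3 regions at Ets1, an endothelial transcription factor gene, the one 28.1 kb outside ranked 40.4 to 58.2 in CPC and 77.7 to 84.7 in EPC. The groups overlapped at the others, inside Ets1, with means of 51.8 and 57.4 in CPC and of 61.0 and 54.1 in EPC. A region 2.90 kb from Aplnr, the apelin receptor gene, was high in both (91.6 to 98.1 and 80.6 to 93.6), and the groups overlapped.

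Cardiac genes had regions at 11 of 25 genes, 16 in all, of which 5 were higher in every CPC list and 1 in every EPC list, beside 12.7% and 9.25% of all distal regions. Of 4 regions at Hand2, a transcription factor gene of the heart fields, the one at 8.67 kb ranked 27.8 to 50.1 in CPC and 1.77 to 17.6 in EPC. The groups of its other regions, at 3.14, 15.9 and 28.6 kb, overlapped. Their means were 64.9, 27.4 and 33.1 in CPC and 67.9, 29.8 and 30.9 in EPC. The groups also overlapped at every Mef2c region. The region higher in every EPC list lay at Gata6, named after its values were seen. A region inside Gata4 ranked 36.3, 45.7, 57.1 and 64.5 in CPC and 24.1, 27.9, 21.8 and 36.0 in EPC, with the groups close but apart. A region inside Fgf10 ranked 53.7 and 49.6 in uninduced CPC, 93.5 and 92.5 in induced CPC, 91.4 and 81.2 in uninduced EPC, and 95.5 and 95.2 in induced EPC, so every induced list was above every uninduced one.

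Among signalling genes, the Notch list had regions at 6 of 21 genes, 7 in all, of which 3 were higher in every CPC list and 0 in every EPC list: at Hes5 45.5 to 56.4 against 27.3 to 31.7, at Hes1 17.3 to 49.8 against 0.302 to 14.9, and at Dll1 22.8 to 39.2 against 3.65 to 7.76. The BMP and TGF-beta list had 12 of 28 genes and 17 regions, 3 of them higher in CPC and 0 in EPC, and a region 22.8 kb from Bmp2 ranked 22.8 to 51.3 against 4.81 to 19.4. The Wnt list had 6 of 24 genes and 10 regions, 2 higher in CPC and 1 in EPC. Its region inside Lgr4, a receptor for R-spondins, ranked 54.3 to 84.2 in CPC and 8.37 to 29.2 in EPC, while one inside Tcf7l1 ranked 52.6 to 64.9 and 70.0 to 92.3. For the BMP and TGF-beta list and the Wnt list the counts are near the 12.7% and 9.25% of all distal regions.

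The other lists had fewer regions, and their numbers of genes with a region stand beside 14.1% of all genes. The SOX list had 3 of 19 genes, with a region inside Sox5 that ranked 64.1 to 82.9 in CPC and 8.47 to 28.2 in EPC, and overlapping groups at Sox4 and Sox18. The pluripotency list had 6 of 22 genes, with the Dppa4 region above and a region 4.09 kb from Nanog that ranked 43.0 to 54.7 in CPC and 0.493 to 10.7 in EPC, so these genes went in opposite directions. The endoderm list had 6 of 20 genes and 6 regions, 2 higher in every CPC list and 1 in every EPC list. Its region 35.4 kb from Cxcr4 ranked 89.0 to 91.7 in CPC and 39.4 to 68.2 in EPC. The groups overlapped at Cdx2, Dab2 and Foxa2. Early mesoderm genes had 2 of 20 (Eomes and Pdgfra), smooth muscle 2 of 10, housekeeping 4 of 20, neural 5 of 21, cell cycle 6 of 20 and chromatin 8 of 25. At Pdgfra, whose protein was used for the sort, the region inside the gene ranked 3.73 to 59.4 in CPC and 16.0 to 31.6 in EPC, which overlap.

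**Figure D3:**
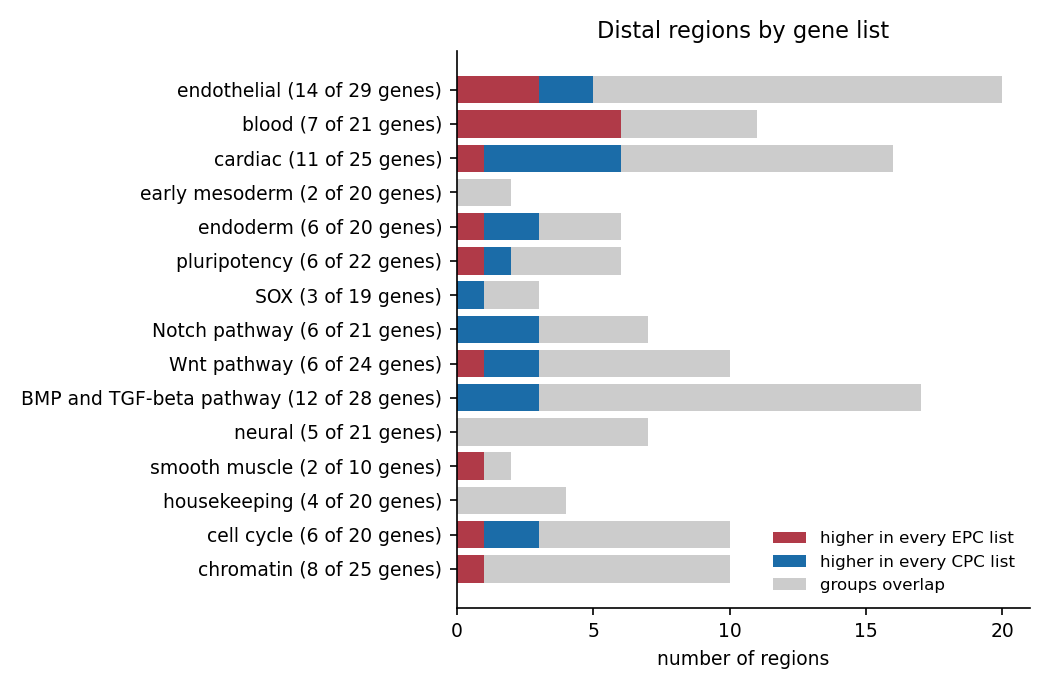
Number of distal regions at the genes of each of 15 lists, with the number of list genes that have any, split into regions higher in every EPC list (red), higher in every CPC list (blue) and overlapping (grey). Blood genes have 6 red and 0 blue regions, and cardiac genes 1 red and 5 blue.

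By the rule of no overlap, fewer distal regions differed on induction of Sox7 than between the cell types. For induction the rule joins both cell types, so it can miss a region that differs in only 1 of them. In all 4 induced lists 165 distal regions (3.52%) ranked higher than in any uninduced list, and 154 (3.29%) ranked lower, where all regions in the 8 lists gave 2.7% and 2.41%. With ranks taken over each whole list in place of the shared regions, the counts were 294 and 64, so the balance between higher and lower depends on the scale. The count of lower regions was 251 without uninduced CPC list 1, 233 without induced CPC list 1, 258 without induced CPC list 2 and 298 without uninduced EPC list 1. A region inside Dlg2, which encodes a synaptic scaffold protein (chromosome 7, 91713432 to 91714847), ranked 35.1 and 26.8 in uninduced CPC, 90.2 and 92.8 in induced CPC, 6.62 and 25.4 in uninduced EPC, and 81.1 and 88.7 in induced EPC. Its induced values were all above 80 and its uninduced values all below 36 (88.2 ± 5.01 against 23.5 ± 12.0, SD, n = 4 each). Regions inside Adam22 and Pik3ip1, an inhibitor of PI3 kinase, and 8.24 kb from Slc27a3 had induced minus uninduced differences of 63.3, 58.2 and 58.1 points. In the other direction a region 21.9 kb from Lekr1 ranked 82.0, 80.5, 60.1 and 69.5 without induction and 9.90, 2.29, 22.3 and 26.8 with it. Regions inside Nsmaf and 42.8 kb from Stpg2 had differences of -44.5 and -45.9 points. At Tal1, the region 6.89 kb away ranked 20.5, 5.72, 24.4 and 23.8 without induction and 39.1, 57.9, 66.3 and 59.9 with it.

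The ChIP lists, which took no part in choosing the regions, allowed a test. A peak overlapped 8.54%, 7.92%, 11.4% and 7.45% of the distal regions in the 4 induced lists and 6.73%, 6.66%, 6.71% and 6.11% in the uninduced lists. Every induced list was thus above every uninduced one (8.84% ± 1.78, SD, n = 4, against 6.61% ± 0.191, SD, n = 3). The difference of 2.23 percentage points gave a two-sided exact permutation p of 0.0571, the smallest that 4 against 3 samples allow, and 0.0571 after Benjamini-Hochberg adjustment over 2 measures, so it could not pass 0.05. The second measure, the distal share minus the boundary share, was 7.62 ± 1.19 points with induction and 6.001 ± 0.188 without, a difference of 1.62 points with the same exact permutation p and adjusted p of 0.0571. The boundary share itself was 1.22% ± 0.619 with induction and 0.604% ± 0.00343 without (SD, n = 4 and 3). A measure in points cannot show which kind of region rose more in proportion to its own share. The induced lists are longer, and with every ChIP list reduced to its 772 highest peaks the differences were 0.377 and 0.382 points (exact permutation, adjusted p = 0.229 for both). With ChIP peaks of score 100 or more they were 0.722 and 0.620 points (exact permutation, adjusted p = 0.114 for both), and without induced list 3, the longest, 1.37 and 1.04 points. Counting the near copies as separate samples gave an exact permutation adjusted p of 0.0286 for both.

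Much of the overlap was shared by all ChIP lists. In each list 229 to 248 of the distal regions hit lay on an input peak. Off input peaks, 2.44% to 6.53% of distal regions were hit in the induced lists and 1.29% to 1.69% in the uninduced lists (each over 4425 regions, with exact Clopper-Pearson 95% intervals from 0.977% at the lowest to 7.30% at the highest, for counting error only). In all 8 ChIP lists a peak was found at 259 distal regions, of which 221 (85.3%) lay on an input peak. Of the 162 distal regions off input that had a peak in a single induced list and no other, 124 (76.5%) had it in induced list 3.

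**Figure D4:**
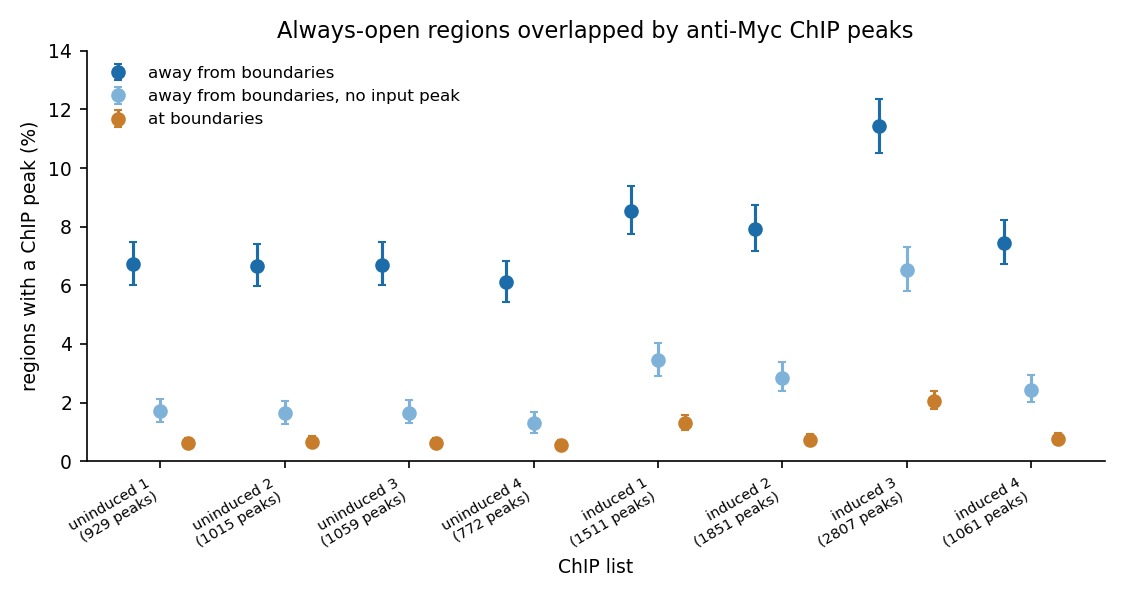
Percent of distal regions, of distal regions off input peaks and of boundary regions that a peak of each ChIP list overlapped, with exact 95% intervals, and the number of peaks of each list on the axis. The distal share is 6.11% to 6.73% in the uninduced lists and 7.45% to 11.4% in the induced lists, above the boundary share in every list.

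Induced Sox7 sites, defined as regions with a peak in at least 3 of the 4 induced ChIP lists and in 0 uninduced lists, numbered 40 among the distal regions (0.854%, 95% interval 0.611 to 1.16), against 0.435% of all regions in the 8 lists. Boundary regions had 17 (0.202%, 0.118 to 0.323). Both intervals are for counting error over regions only and leave out the spread between samples. A peak in all 4 induced lists was found at 21 of the 40, and 1 of the 40 lay on an input peak. Inside a gene lay 13, and 11 had no protein-coding gene within 50 kb. Only 2 of the 37 off chromosome 18 lay on an annotated start, those of 2900060B14Rik, at Clasp1, and Gm34041, at Traf6, printed above, and 0 lay at a gene of the 15 lists. With 2 of 4 induced lists asked for, the count was 94, with 4 of 4 it was 21, and with scores of at least 100 it was 9. Without induced list 2 or 4 (2 of the other 3 lists asked for) it was 81 and 86, and with all ChIP lists at equal length 11. Of 235 induced sites anywhere, 40 (17.0%) lay on distal regions, 18 (7.66%) on boundary regions, 153 (65.1%) on ATAC regions missing from at least 1 list, and 24 (10.2%) on none.

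The sites were ordered by the mean of their peak scores over the induced lists with a peak, only to choose which to name: each list has its own score scale, and list 3 gave the highest score at each of the first 4. In this order the first was a region 51.3 kb from any protein-coding gene on chromosome 3 (22023528 to 22024976), with peak scores of 247, 367, 672 and 207 in induced lists 1 to 4. It was followed by regions 16.2 kb from the amino acid transporter gene Slc38a11 (169, 247, 686 and 204), within Tead1, which encodes a DNA-binding partner of the Hippo pathway's YAP protein (246, 200, 551 and 239), and 22.2 kb from Lmo1, a LIM-domain gene related to Lmo2 (276, 117, 323 and 229). Further sites lay near Lifr, Wsb1, Mrrf, Akap6, Nudt4 and Cntnap2 and inside Gna12 and Gnai2, both of which encode G protein alpha subunits. The score is the authors' own value for each peak.

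At these 40 regions the ATAC ranks were mostly higher after induction. In every induced list 14 of the 40 (35%) ranked above every uninduced list, and 0 ranked below, beside 3.52% and 3.29% for all distal regions. The induced minus uninduced difference was above 0 at 35 of the 40, with a median of 14.1 points, and at 46.0% of the other distal regions. The ATAC and ChIP samples share the induction but are separate libraries, and the regions were not tested as a group.

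The first of these sites, on chromosome 3, ranked 23.4 and 14.8 in uninduced CPC, 76.6 and 84.4 in induced CPC, 46.8 and 44.6 in uninduced EPC, and 75.6 and 81.7 in induced EPC. It was higher with induction in both cell types (79.6 ± 4.18 against 32.4 ± 15.8, SD, n = 4 each). The site 31.3 kb from Nudt4 ranked 54.6, 58.1, 22.5 and 6.57 without induction and 87.0, 82.3, 74.8 and 86.8 with it. A site on chromosome 3 (131910176 to 131911824), 173 kb from any gene, ranked 31.5, 26.7, 68.2 and 70.1 without induction and 89.0, 88.4, 96.2 and 95.5 with it. At some sites the EPC ranks were already high without induction, where the percentile scale leaves little room for a higher value, so the CPC and EPC differences cannot be compared there. The site 7.67 kb from Mrrf ranked 14.7 and 15.9 in uninduced CPC and 75.1 and 84.4 in induced CPC, but 89.6 and 80.9 in uninduced and 88.4 and 89.7 in induced EPC. The Lmo1 site ranked 36.4 and 43.7, then 82.4 and 82.2, in CPC, and 95.1 and 96.5, then 96.995 and 97.2, in EPC. At Tead1 the groups overlapped (18.8 to 44.7 without induction and 29.3 to 57.5 with it), as they did at Slc38a11 (73.9 to 91.9 and 86.5 to 92.7).

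**Figure D5:**
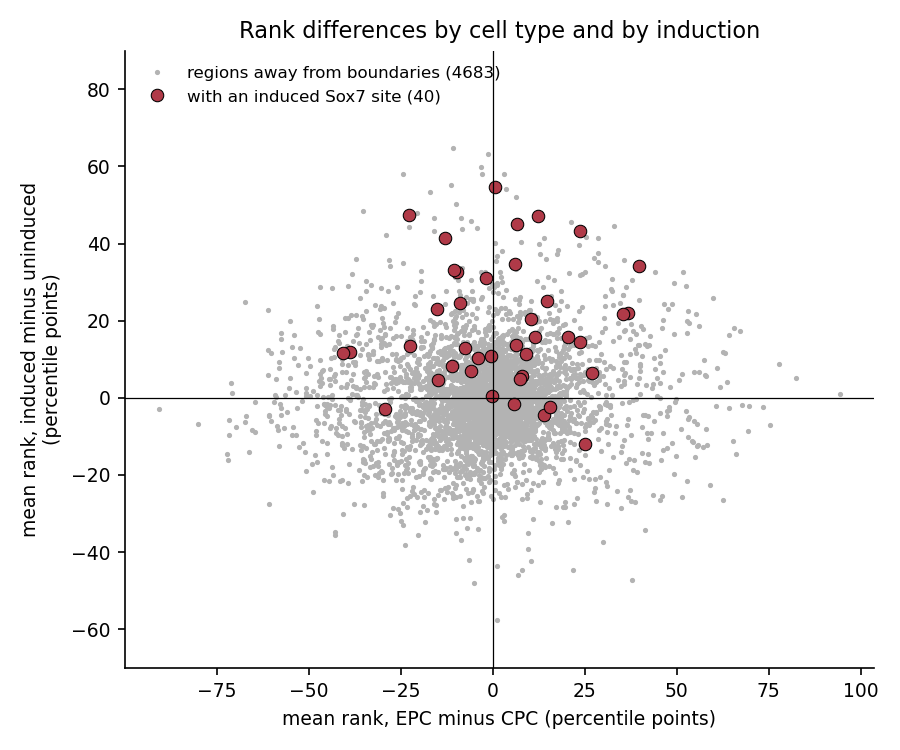
Difference in mean score rank between EPC and CPC (horizontal, percentile points) and between induced and uninduced lists (vertical, percentile points) for the 4683 distal regions in grey and the 40 with an induced Sox7 site in red. Of the red points 35 lie above 0 on the vertical axis, and they lie on both sides of 0 on the horizontal axis.

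The authors' deposited Sox7 list of 666 regions overlapped 90 distal regions (1.92%, where all regions in the 8 lists gave 1.03%), and 39 of the 90 were among the 40 induced sites. The authors' deposited list of regions with both Sox7 and Gata4, 117 in all, overlapped 37 distal regions (0.790%, against 0.435%), which is 31.6% of that list, where 13.5% of the Sox7 list lay on distal regions. Boundary regions met 45 and 20 regions of these lists. The 37 included regions inside Mecom, a transcription factor gene of blood stem cells, inside Nfatc1, which acts in heart valve endothelium, and 11.1 kb from Erg, an endothelial transcription factor gene, named after their overlap was seen. Only 15 of the 37 were induced Sox7 sites as defined here, the Nfatc1 region among them. The Mecom and Erg regions were not, with a peak in 2 induced lists each. The authors' deposited lists of ATAC regions found only after induction met 27 distal regions for CPC (0.577%) and 26 for EPC (0.555%), and 63 (0.749%) and 33 (0.392%) boundary regions.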

How the data were processed

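Peak lists of 8 ATAC-seq, 8 anti-Myc ChIP-seq and 1 input library were used. The submitters' processing notes name GRCm38 (mm10) and, with no role given, Trimmomatic, Bowtie2, SAMtools, bedtools and MACS 1.4. Each peak carries a score deposited by the authors, on a scale that depends on depth, which is not given in the sources used here; here scores order and filter the peaks of each list, and a mean score over ChIP lists served only to choose which Sox7 sites to name. The authors' derived lists were used for their positions. The 4 RNA-seq samples were not analysed here. Merging, distances, ranks and exact permutation tests were computed with Python 3.11.15, pandas 2.3.3, NumPy 2.4.6 and SciPy 1.17.1, and the steps were tested on simulated lists. Genes and starts came from RefSeq GRCm38.p6 tables (21883 protein-coding genes on 21 chromosomes, with start sequences and microRNAs other than those of chromosome 18), and all 325 entries of 15 gene lists matched. The members and lists were chosen with earlier results of these data known. Regions to name were drawn from the highest in mean rank off input peaks and the 5 most different in each direction between cell types and on induction. The latter were taken among regions whose groups do not overlap. The 15 leading Sox7 sites, the 10 genes with most regions, 4 genes per list and the 5 widest were also drawn on. Not all of these are given in the text, and some others were named after their values were seen. Of 12 regions tied at the highest score, 5 are named by gene and the rest are given by chromosome. Alternatives covered score minima, list length, boundary distance, overlap, ranking scale, the replicate block and each library left out.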

Additional observations from a re-analysis of the deposited data

Results flagged for a closer look

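Of 148 named regions examined, 3 moved in opposite directions on induction in the 2 cell types, in both replicates of each, and this difference between the cell types was not tested. At the region 19.9 kb from Cbfa2t3, the induced minus uninduced difference in rank was -28.0 points in CPC (32.4 and 46.5, then 9.92 and 13.0) and 5.37 points in EPC (75.2 and 78.4, then 81.7 and 82.5), so the EPC difference exceeded the CPC difference by 33.4 points. At the region 27.6 kb from Smad6, an inhibitor of BMP signalling, it was -15.6 points in CPC (27.3 and 20.1, then 4.44 and 11.8) and 6.80 points in EPC (4.65 and 1.09, then 8.53 and 10.8), which differ by 22.4 points. At the region 23.5 kb from Dll1, a Notch ligand gene, it was 13.5 points in CPC (28.2 and 22.8, then 39.2 and 38.8) and -3.54 points in EPC (7.76 and 7.43, then 4.46 and 3.65), a value of -17.0 points for EPC minus CPC. Over all distal regions the ranks of both induced replicates lay on the same side of both uninduced ones in the 2 cell types at 409 (higher, 8.73%) and 402 (lower, 8.58%), and on opposite sides at 121 (2.58%) and 110 (2.35%). Boundary regions gave 2.65% and 2.59% on opposite sides, so such regions were no more frequent among the distal regions, and 3 of 148 is not above these shares.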

How the results depend on the processing

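The number of distal regions was 2687 with peaks of score 100 or more, with 54.0% inside a gene, and 46.7% were inside a gene at a boundary distance of 5 kb. With 4 uninduced ChIP lists counted separately, the differences were 2.28 and 1.67 points (exact permutation, adjusted p = 0.0286 for both), but 2 of those lists are near copies. Leaving out 1 ChIP list gave 1.37 to 2.69 points for the share and 1.04 to 1.93 for distal minus boundary. Distal regions on an induced Sox7 site numbered 25 and 9 with score minima of 50 and 100, 94 and 21 with 2 and 4 lists asked for, and 40 to 86 when 1 ChIP list was left out, when 2 of 3 induced lists were enough. With ranks over whole lists, 294 regions were higher and 64 lower after induction. Leaving out 1 ATAC list gave 226 to 298 lower; fewer lists make separation easier. With the replicate numbers as a replicate block over the 4 ChIP pairs, the differences were 2.28 and 1.67 points (exact test of paired signs, adjusted p = 0.125 for both); same-numbered lists correlated at 0.0711, 0.0542, -0.0209 and -0.0875 over 4548 regions, and 2 of 4 correlated best with their own number, so the numbers were not taken to pair samples. All 200 alternatives for 20 single regions kept their sign, and 13 moved by over 1 SD. All 13 came from ranks taken over each whole list. On that scale the difference was smaller in size at every one of the 20 regions, so the size of a difference depends on the scale. These 20 were chosen among regions whose groups do not overlap, so leaving out 1 list could not change a sign. Peak lists without read counts limit every statement on a missing peak.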
